A study of Sus scrofa with 17 samples.

Results

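Right ventricular gene expression was compared between pigs given umbilical cord blood mononuclear cells more than once (multidose, n = 7) and pigs that had received vehicle (vehicle control, n = 5). These are 12 of the 17 libraries of the study, and the other 5 came from pigs given a single dose. All animals, controls included, were kept under right ventricular pressure overload, and the cells were given into the myocardium. RNA was taken from homogenised ventricular tissue, 1 library per animal, and p-values therefore measure the spread from animal to animal. The members were chosen by their labels, and 15884 of 35670 genes passed the low-count filter and were tested. The labels do not give the number of doses, the time of harvest (more than 1 time point was used), the sex, weight or batch of an animal, or the kind of donor of the cells. In the counts, expression of Y-linked genes was present in 4 of 7 multidose and 4 of 5 control libraries, and vehicle control 1 was the control without it.

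A right ventricle that pumps against raised pressure thickens, and its muscle cells typically produce more natriuretic peptides and stretch-response proteins. Its fibroblasts can lay down more matrix, and the muscle can outgrow its capillary supply. Umbilical cord blood mononuclear cells are a mixture of lymphocytes, monocytes and rare progenitor cells, and in heart tissue they are studied mainly for secreted factors and effects on immune cells, vessels and matrix. Bulk tissue RNA mixes all cell types of the wall, so fewer cells of a type and less RNA per cell cannot be told apart.

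The 12 libraries differed in ways that the groups do not define. Multidose libraries 1 to 4 carry names starting with M1, whereas multidose 5 to 7 and all 5 controls carry M8 or M9 names. What these names stand for is not stated in the labels. Library totals ran from 21754800 to 40969168 counts in the M1 multidose libraries, from 42404702 to 48330971 in the M8 and M9 multidose libraries and from 48311031 to 61144663 in the controls. The multidose mean was lower by 18194347 counts (two-sided exact permutation test with 792 regroupings, p = 0.0101, or 0.0505 adjusted over 5 library measures). In the M8 and M9 libraries alone the difference was -8251545 counts (exact permutation p = 0.107 over 56 regroupings). Cytoplasmic ribosomal protein genes took 4.08% to 5.10% of the counts in the M1 multidose libraries, 2.54% to 3.004% in the other multidose libraries and 1.61% to 3.64% in the controls. Ventricular muscle markers were abundant in every library, for example 12509.7 to 22633 CPM (counts scaled to library size) of the ventricular myosin light chain gene MYL2 in multidose and 8629.8 to 16807 CPM in control libraries.

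Some single libraries stood apart for whole gene groups. Multidose 5 had the highest value of the 12 in 32 of 33 interferon response genes. Vehicle control 4 had the highest value in 17 of 20 glucocorticoid target genes and in 20 of 34 immediate early genes. Vehicle control 3 had the lowest value in 63 of 64 cytoplasmic ribosomal protein genes and in 51 of 64 nuclear genes of oxidative phosphorylation. Where leaving out one of these 3 libraries turned the sign of a gene's fold change or a list's median given below, or moved it by over 1.5 times, the value without that library stands beside it.

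No gene passed an adjusted p of 0.05 between multidose and control by edgeR's quasi-likelihood test (0 of 15884, 0%). At an unadjusted p under 0.05 there were 1997 genes (12.6% of those tested), of which 1071 were higher (6.74%) and 926 lower (5.83%) after multiple doses. By limma-voom 0 genes passed and 2625 were at an unadjusted p under 0.05 (16.5%). DESeq2 called 8 genes (0.0504% of 15875), with 2265 at an unadjusted p under 0.05 (14.3%). In 43 genes (0.271%) all 7 multidose values lay on one side of all 5 control values, with 23 above (0.145%) and 20 below (0.126%). A gene without a group difference has all multidose values above control in 1 of 792 regroupings, and all below in 1 of 792. Both observed shares were close to this. When the fit was limited to the M8 and M9 libraries, 3 multidose against 5 control, 0 of 16178 genes passed (0%), and 592 were at an unadjusted p under 0.05 (3.66%), 242 higher (1.5%) and 350 lower (2.16%). In the M8 and M9 libraries 0.705% of genes had all multidose values above and 1.23% all below the controls. Without a group difference, 1 of 56 regroupings gives this in each direction, a larger share than either. The direction of the genes at an unadjusted p under 0.05 moved from 53.6% higher over all libraries to 40.9% higher in the M8 and M9 libraries, and it was 40.6% with a covariate for the M1 names. These last sets held 592 and 606 genes. Both were smaller than the share of 0.05 that this threshold gives without group differences, so their direction is uncertain. Without vehicle control 3 the count over all libraries was 1286.

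**Figure D1:**
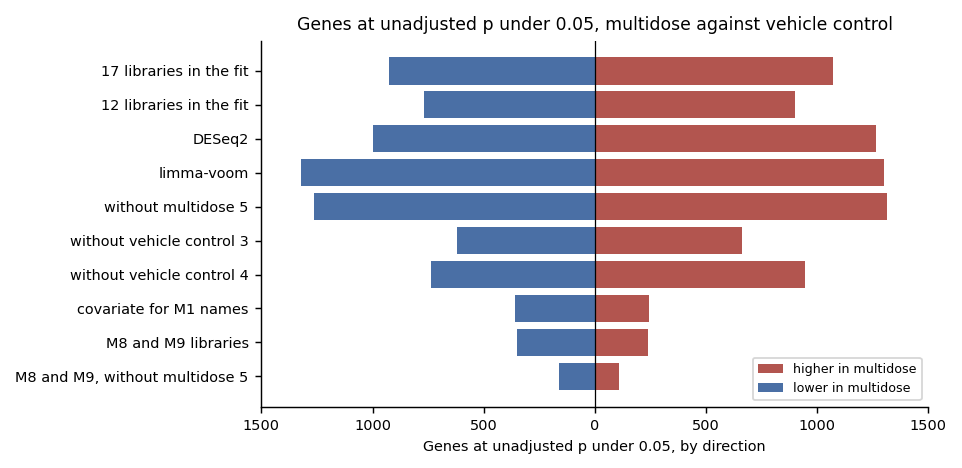
Number of genes at an unadjusted p under 0.05 between multidose and vehicle control, higher to the right and lower to the left, in 10 fits. The fit with all 17 libraries gives 1071 higher and 926 lower genes, the one with only M8 and M9 libraries 242 and 350.

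To place both subsets of the multidose group against the same controls, the groups were split by library name in 1 fit. The 4 M1 multidose libraries differed from control in 1869 genes at an adjusted p under 0.05 (11.8%), of which 840 were higher (5.29%) and 1029 lower (6.48%). The 3 M8 and M9 multidose libraries differed in 0 genes (0%), with 713 at an unadjusted p under 0.05 (4.49%). The M1 and the other multidose libraries differed from each other in 909 genes (5.72%), of which 365 were higher (2.3%) and 544 lower (3.42%) in the M1 libraries. Without multidose 5 that last count was 108. As no control has an M1 name, what the names stand for and repeated dosing cannot be told apart in the M1 libraries.

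TSPOAP1 (ENSSSCG00000017638, chr12:34578698-34606623 on Sscrofa11.1), whose protein binds the mitochondrial membrane protein TSPO, had the smallest p of all genes. It measured 5.25, 2.24, 3.20 and 2.37 CPM in the M1 multidose libraries, 3.53, 3.67 and 2.36 CPM in the M8 and M9 multidose libraries and 0.568, 0.470, 1.16, 0.637 and 1.34 CPM in the controls. Every multidose value lay above every control value. The log2 ratio was 1.94 ± 0.34 (SE, edgeR adjusted p 0.355), and the subsets gave 1.96 ± 0.39 (SE, adjusted p 0.00732 in the split fit) and 1.92 ± 0.41 (SE, adjusted p 0.989). DESeq2 called it with an adjusted p of 5.54e-05.

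Of the other 22 genes whose multidose values all lay above control, 7 more are named by the rule. DTNA (ENSSSCG00000028047, chr6:118333069-118753516) encodes alpha-dystrobrevin, a part of the dystrophin complex that anchors the muscle cell membrane. It measured 78.0, 93.3, 70.6 and 63.1 CPM in the M1 libraries, 113.8, 67.8 and 57.1 CPM in the M8 and M9 multidose libraries and 43.6, 56.3, 49.97, 41.8 and 51.3 CPM in controls. On the log2 scale this differed from control by 0.68 ± 0.18 (SE, edgeR adjusted p 0.366), with 0.65 in the M1 subset and 0.71 in the other subset, and 0.37 in that subset without multidose 5. MRPS23 (ENSSSCG00000035193, chr12:34123679-34129574), a subunit of the small mitochondrial ribosome, had values of 25.1 to 34.4 (median 30.1) CPM against 16.1 to 24.3 (median 23.3) CPM in controls, which gives a log2 ratio of 0.48 ± 0.12 (SE) with 0.51 and 0.44 in the subsets. H2AJ (ENSSSCG00000039307), a replication-independent histone H2A variant, had 18.6 to 30.8 (median 21.02) CPM against 12.6 to 17.9 (median 15.1) CPM, and multidose 5 held its highest value. Relative to control this gave 0.57 ± 0.14 (SE), 0.53 in the M1 subset and 0.62 in the other, or 0.35 without multidose 5. Reads of histone genes with near-identical copies may be split between them. AS3MT (ENSSSCG00000010592, chr14:113844107-113867880), an arsenic methyltransferase, measured 10.5 to 16.9 (median 14.2) CPM against 7.37 to 9.96 (median 8.57) CPM, with a log2 fold change of 0.58 ± 0.13 (SE), 0.68 in the M1 subset and 0.44 in the other. Positive values in both subsets follow from how these genes were chosen.

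The remaining 3 genes above control had larger fold changes in the M1 subset, a difference that passed for TRAF3IP3 and did not pass for HJV (edgeR adjusted p = 0.0793) or SAT2 (adjusted p = 0.167). TRAF3IP3 (ENSSSCG00000032721, chr9:133190020-133214209), which encodes a protein that binds the signalling adaptor TRAF3, measured 68.7, 61.8, 92.9 and 67.7 CPM in the M1 libraries, 33.4, 26.9 and 29.8 CPM in the other multidose libraries and 21.1, 25.3, 14.7, 21.4 and 24.04 CPM in controls. The M1 subset differed from control by 1.77 ± 0.20 (SE, adjusted p 0.000488) and from the other subset by 1.28 ± 0.23 (SE, adjusted p 0.012). HJV (ENSSSCG00000035429), the BMP coreceptor hemojuvelin that takes part in iron regulation, measured 7.58, 1.75, 1.36 and 0.522 CPM, 0.685, 0.642 and 0.846 CPM and 0.292, 0.348, 0.491, 0.394 and 0.517 CPM in the same order. Its log2 fold change of 2.20 ± 0.61 (SE) was 1.21 without multidose 1, the library with the highest value. SAT2 (ENSSSCG00000017952, chr12:52911725-52913314), a member of the spermidine acetyltransferase family, had a log2 ratio of 0.84 ± 0.22 (SE), 1.004 in the M1 subset (adjusted p = 0.00312) and 0.60 in the other subset.

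Among the 20 genes whose multidose values all lay below control, 8 are named. STUM (ENSSSCG00000024288, chr10:14294959-14351054), related to a fly gene of mechanical sensing, measured 0.635, 0.762, 0.872 and 1.21 CPM in the M1 libraries, 0.822, 0.895 and 1.09 CPM in the M8 and M9 multidose libraries and 2.099, 1.31, 2.20, 2.79 and 1.26 CPM in controls. The resulting log2 ratio was -1.10 ± 0.26 (SE, edgeR adjusted p 0.366), with -1.14 and -1.04 in the subsets. SNX19 (ENSSSCG00000015252, chr9:57509186-57558361), a sorting nexin of membrane traffic, measured 9.78 to 13.9 (median 11.2) CPM against 14.5 to 21.4 (median 16.2) CPM, a log2 fold change of -0.54 ± 0.13 (SE). RORA (ENSSSCG00000004576, chr1:110719004-111482807), a nuclear receptor of the circadian clock, measured 5.51 to 7.78 (median 6.31) CPM against 7.84 to 12.4 (median 8.82) CPM, a log2 fold change of -0.53 ± 0.13 (SE). The subsets gave -0.60 and -0.46 for SNX19 and -0.57 and -0.48 for RORA. DLG5 (ENSSSCG00000026268, chr14:80249693-80377496), a scaffold of cell polarity, measured 10.8, 11.2, 9.93 and 11.97 CPM in the M1 libraries, 14.2, 15.6 and 13.7 CPM in the other multidose libraries and 16.9, 18.01, 25.6, 30.5 and 19.99 CPM in controls, so that the M1 values were the lowest. Over all libraries the log2 difference was -0.83 ± 0.18 (SE), -1.01 (adjusted p = 0.00546) in the M1 subset and -0.62 in the other.

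The other genes below control were 4 with ties to immune signalling or small GTPases. TNFAIP3 (ENSSSCG00000004154, chr1:26474158-26489771) encodes A20, a feedback inhibitor of NF-kB, and measured 3.68 to 7.39 (median 6.43) CPM against 7.49 to 11.5 (median 10.01) CPM, a log2 fold change of -0.60 ± 0.17 (SE) that was -0.39 in the M8 and M9 libraries. OTUD1 (ENSSSCG00000011076, chr10:51618442-51621309), a deubiquitinase, had a log2 ratio of -1.22 ± 0.35 (SE) and -0.73 without vehicle control 4, in which it measured 26.98 CPM. ARHGAP30 (ENSSSCG00000006372, chr4:89375486-89394190), a GTPase-activating protein, had -0.53 ± 0.16 (SE) and -0.33 without vehicle control 1. GPR35 (ENSSSCG00000040095, chr15:139571093-139591638), a G protein-coupled receptor found on immune cells, had -0.79 ± 0.24 (SE), with 1.83 to 2.68 (median 2.16) CPM against 3.03 to 6.47 (median 3.23) CPM.

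**Figure D2:**
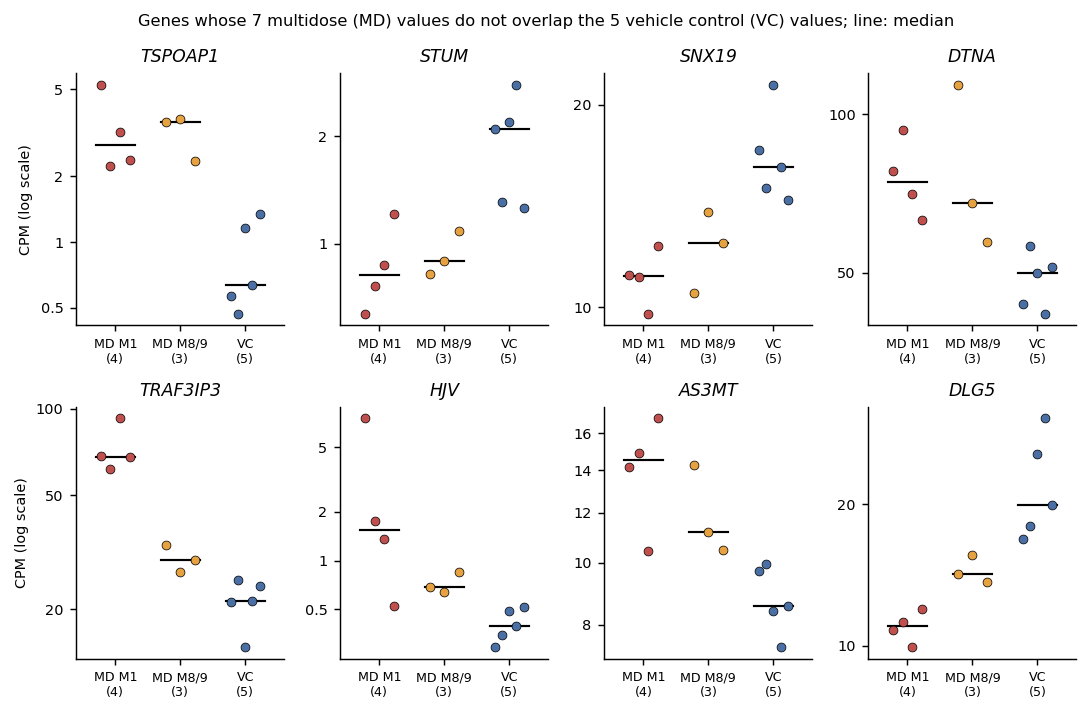
CPM on a log axis for 8 genes whose multidose values do not overlap control, with 1 point per library and a line at the median. TSPOAP1, STUM, SNX19 and DTNA have both multidose subsets on the same side of control, as their choice requires, and the M1 values of TRAF3IP3 lie between 61.8 and 92.9 CPM and its M8 and M9 multidose values between 26.9 and 33.4 CPM.

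DESeq2 called 5 further genes beside TSPOAP1, AS3MT and DLG5. ADGRG1 (ENSSSCG00000002815, chr6:19523618-19570891), an adhesion G protein-coupled receptor, measured 36.97, 41.9, 46.98 and 53.2 CPM in the M1 libraries, 62.5, 51.8 and 61.1 CPM in the other multidose libraries and 114.2, 62.2, 79.9, 88.3 and 81.2 CPM in controls, so that multidose 5 overlapped the lowest control. Its difference from control was -0.75 ± 0.16 (SE, edgeR adjusted p 0.366). B3GALT2 (ENSSSCG00000010800, chr10:613464-623587), a galactosyltransferase, measured 202, 153, 151 and 90.4 CPM, 102, 51.6 and 84.0 CPM and 38.3, 37.8, 48.5, 8.38 and 56.6 CPM in the same order, a log2 fold change of 1.65 ± 0.43 (SE) and 1.05 in the M8 and M9 libraries. SIK1 (ENSSSCG00000035037, chr13:206454695-206465802), a salt-inducible kinase, measured 6.14 to 21.8 (median 13.8) CPM against 40.01, 14.9, 27.7, 104 and 23.6 CPM in the controls. On the log2 scale this differed from control by -1.73 ± 0.39 (SE), and -1.06 without vehicle control 4. A gene without a symbol, ENSSSCG00000046947, had 1.695 ± 0.42 (SE) over all libraries and 0.64 in the M8 and M9 libraries.

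The tools differed most for CXCL10 (ENSSSCG00000032474), a chemokine that attracts T cells and is induced by interferon. It measured 7.96, 12.6, 7.07 and 11.5 CPM in the M1 libraries, 539, 22.7 and 20.9 CPM in multidose 5, 6 and 7 and 65.8, 21.4, 24.5, 227 and 48.1 CPM in controls. The M1 values and multidose 7 were below all controls, multidose 6 was within the control range, and multidose 5 was the highest library. The log2 ratio was 0.20 ± 1.01 (SE, adjusted p 0.948) by edgeR, -2.33 (adjusted p = 0.0452) by DESeq2 and -2.48 by edgeR without multidose 5. Its sign also turned without vehicle control 2 (-0.053) and without vehicle control 3 (-0.047), and without vehicle control 4 it was 1.14. With the replicate number as a block, 1 gene passed, RNF180 (ENSSSCG00000016941), a ubiquitin ligase gene. Relative to control this gave 0.75 ± 0.28 (SE, edgeR adjusted p 0.37) without the block and 0.94 with it, although the numbers do not pair the animals.

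Interferon response genes code for antiviral effectors and the factors that induce them. Of 33 tested, 30 had positive values over all libraries with a median log2 fold change of 0.60, against -0.0051 and 49.3% positive (M8 and M9 libraries 47.7%) over all genes, and 1 was at an unadjusted p under 0.05 in the positive direction (background 6.74%). Without multidose 5, 31 of the 33 were negative with a median of -0.34, and 9 were at an unadjusted p under 0.05 in the negative direction (background 7.96%). ISG15 (ENSSSCG00000040575, chr6:63363201-63364211), a ubiquitin-like antiviral protein, measured 1632 CPM in multidose 5, 12.98 to 28.1 CPM in the other 6 multidose libraries and 22.9 to 44.5 CPM in controls. The other multidose values thus lay within or below the control range. In the M8 and M9 libraries the list median was 1.19, with 19 of 33 at an unadjusted p under 0.05 in the positive direction (background 1.5%), and -0.27 with 0 such genes without multidose 5 (background 0.671%).

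The values of single members followed the same library. ISG15 had a log2 ratio of 4.12 ± 1.02 (SE, edgeR adjusted p 0.9998) in the M8 and M9 libraries, and -0.29 without multidose 5. RIGI, a cytoplasmic sensor of viral RNA, went from 2.503 to 0.04, USP18, which removes ISG15 from proteins, from 1.68 to 0.15, and IFI44L from 2.11 to -0.10. IFIT3 went from 2.45 to -0.23, and IFI6, chosen after its values were seen, from 2.19 to -0.48. Within the multidose group 12 interferon genes were lower in the M1 libraries at an adjusted p under 0.05 (background 3.42%), and without multidose 5 this count was 0 (background 0.497%).

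Glucocorticoid receptor targets, which include FKBP5, PER1 and metabolic regulators such as PDK4, had negative values in 20 of 20 members (median -0.51). Of these, 13 were at an unadjusted p under 0.05, where the background of negative genes was 5.83%. Without vehicle control 4 the median was -0.29 and 1 gene was at an unadjusted p under 0.05 (background 4.6%), and in the M8 and M9 libraries the median went from -0.51 to -0.17. In the M1 subset all 20 were negative with a median of -0.67, and 5 were lower at an adjusted p under 0.05 (background 6.48%). Without vehicle control 4 that subset had 17 negative, a median of -0.36 and 3 such genes (background 5.45%). FKBP5 (ENSSSCG00000001549), a chaperone that restrains the glucocorticoid receptor, measured 34.3, 23.3, 36.9 and 32.8 CPM in the M1 libraries, 67.8, 57.6 and 38.8 CPM in the other multidose libraries and 47.6, 48.2, 64.9, 275 and 66.6 CPM in controls. The resulting log2 ratio was -1.27 ± 0.39 (SE), and -0.45 without vehicle control 4. CEBPD, a transcription factor of acute stress, had -1.44 ± 0.43 (SE) and -0.58 without that library, and DDIT4, a stress-induced inhibitor of mTOR, -1.05 ± 0.34 (SE) and -0.34. ZBTB16, a transcription factor, measured 12.2 to 30.2 (median 21.8) CPM against 21.1 to 97.3 (median 43.1) CPM, a log2 fold change of -1.26 ± 0.34 (SE) and -0.86 without vehicle control 4, its highest library. The summed level of the list was 474.5 to 731.3 CPM in multidose libraries, 652.7 to 813.4 CPM in the 4 other controls and 2238 CPM in vehicle control 4.

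PDK4 (ENSSSCG00000015334), the kinase that shuts pyruvate out of oxidation, measured 12.6, 17.4, 10.1 and 17.9 CPM in the M1 libraries, 47.9, 123 and 93.5 CPM in the other multidose libraries and 98.8, 42.7, 66.9, 602 and 74.01 CPM in controls. The M1 values lay below all others, and the M8 and M9 multidose values lay within the control range. The M1 subset fell in log2 terms by 3.61 ± 0.79 (SE, adjusted p 0.0135), and by 2.27 without vehicle control 4. The other subset had -1.01 ± 0.78 (SE), and 0.32 without vehicle control 4, while the difference between the subsets did not pass (adjusted p = 0.0691 by edgeR) and passed without vehicle control 4 (adjusted p = 0.0156).

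Immediate early genes, the first transcription factors and regulators that cells induce on stimulation, had negative values in 30 of 34 members (median -0.37), and 12 were at an unadjusted p under 0.05 (background 5.83%). Without vehicle control 4 the median was -0.21 with 6 such genes (background 4.6%). FOSL2, an AP-1 transcription factor, had -0.78 ± 0.23 (SE) and -0.50 without that library, and ZFP36, which destabilises messenger RNAs of cytokines, -0.80 ± 0.24 (SE) and -0.38. A member with a positive value in the M8 and M9 libraries was ATF3. Its choice through its p in these libraries favours a gap to control. This stress-induced transcription factor (ENSSSCG00000015595) measured 36.9, 22.9 and 28.01 CPM in multidose 5 to 7, 11.4, 7.03, 14.5 and 4.72 CPM in the M1 libraries and 12.04, 14.4, 5.50, 9.92 and 9.62 CPM in controls. Its log2 fold change in the M8 and M9 libraries was 1.49 ± 0.34 (SE, edgeR adjusted p 0.9998), whereas the M1 subset had -0.13, or -0.28 without vehicle control 3.

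Markers of T and natural killer cells had negative values in 28 of 32 members (median -0.59), and 7 were at an unadjusted p under 0.05 in the negative (background 5.83%) and 2 in the positive direction (background 6.74%). The negative count was 12 without multidose 5 (background 7.96%) and 12 without vehicle control 4 (background 4.6%). CD8A (ENSSSCG00000008217), a coreceptor of cytotoxic T cells, measured 1.27, 2.06, 2.32 and 1.56 CPM in the M1 libraries, 3.29, 3.01 and 3.20 CPM in the other multidose libraries and 11.4, 4.33, 5.24, 1.93 and 7.30 CPM in controls. Only vehicle control 4, which was lowest in 5 of the 32 markers, reached into the multidose range. Over all libraries the log2 difference was -1.33 ± 0.35 (SE, edgeR adjusted p 0.366) and -0.94 in the M8 and M9 libraries. CD3E, a T cell receptor subunit, fell by 1.85 ± 0.34 (SE, adjusted p 0.0057) in the M1 subset and had -0.58 in the other subset. PRF1, the pore protein perforin, had -1.01 ± 0.33 (SE), and TBX21, the transcription factor T-bet, -1.12 ± 0.38 (SE). In the M1 subset 8 of the 32 markers were lower at an adjusted p under 0.05 (background 6.48%). The summed level of the list was 53.7 to 144.8 CPM in multidose and 62.4 to 190.4 CPM in control libraries, and vehicle control 1 was highest in 14 markers. Without it the list median was -0.41.

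Chemokines and NF-kB feedback genes had negative values in 19 of 30 members (median -0.25), with 8 at an unadjusted p under 0.05 in the negative (background 5.83%) and 2 in the positive direction (background 6.74%). Without multidose 5 the negative count was 13 (background 7.96%). NFKBIZ, an inducible regulator of NF-kB, had -0.70 ± 0.24 (SE) and -0.44 without vehicle control 1. SOCS3, a feedback inhibitor of cytokine signalling, had -0.67 ± 0.25 (SE) and -0.40 without vehicle control 4. In the M1 subset 9 of the 30 genes were lower at an adjusted p under 0.05 (background 6.48%) and 1 was higher (background 5.29%). CCL21 (ENSSSCG00000038162), a chemokine of lymphatic vessels, went the other way in the M1 subset, where it measured 120.02, 64.8, 71.0 and 98.9 CPM against 19.3, 24.6 and 32.5 CPM in the other multidose libraries and 17.7, 33.7, 15.9, 12.2 and 29.9 CPM in controls. The M1 subset was higher by 2.02 ± 0.37 (SE, adjusted p 0.00581) and the other subset had 0.22, or 0.39 without multidose 5, 0.12 without vehicle control 3 and 0.069 without vehicle control 4. The subsets differed by 1.80 with an adjusted p of 0.0333, and by 1.63 (adjusted p = 0.135) without multidose 5.

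Macrophage and monocyte markers had positive values in 16 of 25 members (median 0.05), with 1 at an unadjusted p under 0.05 in the positive (background 6.74%) and 2 in the negative direction (background 5.83%). The median was 0.033 without multidose 5, -0.022 without vehicle control 3 and 0.14 without vehicle control 4. FOLR2, a folate receptor of resident macrophages, was the positive one, with 8.49 to 17.2 (median 12.6) CPM against 5.92 to 12.2 (median 7.44) CPM and a log2 fold change of 0.54 ± 0.24 (SE). CCR2, a chemokine receptor of recruited monocytes, had 0.51 ± 0.27 (SE), with a sign that turned in the M8 and M9 libraries. MARCO, a scavenger receptor, had a mean of 0.49 CPM in multidose and 4.32 CPM in control libraries, a log2 fold change of -3.07 ± 0.90 (SE) and -1.54 without vehicle control 1, where it measured 15.7 CPM. CD163, the haemoglobin scavenger receptor of resident macrophages, had -1.12 ± 0.45 (SE) and -0.04 without vehicle control 4, where it measured 207 CPM against 20.98 to 44.2 CPM in multidose libraries. The values of MARCO and CD163 were smaller without the control named beside each.

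Nuclear genes of oxidative phosphorylation, the mitochondrial chain that makes ATP, had only positive values over all libraries. Other lists of energy supply had members in both directions. Of 40 glycolysis and citric acid cycle genes 25 were positive with a median of 0.09, against 49.3% positive over all genes. In each direction 2 of them were at an unadjusted p under 0.05 (background 6.74% positive and 5.83% negative). Of 33 fatty acid oxidation genes 22 were positive with a median of 0.085, with 2 such genes in the positive and 1 in the negative direction. Vehicle control 1 was the lowest of the 12 libraries in 21 of the 40 and in 16 of the 33 genes. Medians of these lists without it are not given here. In the M8 and M9 libraries 31 of 40 glycolysis and citric acid cycle genes were positive with a median of 0.11. There 28 of 34 fatty acid oxidation genes were positive with a median of 0.16, against 47.7% of all genes. All 64 nuclear genes of oxidative phosphorylation tested had positive values with a median of 0.33, and 25 were at an unadjusted p under 0.05 (background of positive genes 6.74%). The summed level was 28077 to 34578 CPM in the M1 multidose libraries, 22697 to 26819 CPM in the other multidose libraries and 15893 to 26094 CPM in controls, with vehicle control 3 lowest. Without vehicle control 3 the median was 0.26 with 10 such genes (background 4.15%). In the M8 and M9 libraries it was 0.17 with 0 such genes (background 1.5%), or 0.06 without vehicle control 3. In the M1 subset 20 of the 64 were higher at an adjusted p under 0.05 (background 5.29%) and 0 lower, and 17 without vehicle control 3 (background 3.87%). ATP5PF (ENSSSCG00000038399), a subunit of the ATP synthase stalk, measured 512, 516, 496 and 467 CPM in the M1 libraries, 403, 293 and 309 CPM in the other multidose libraries and 251, 304, 162, 309.8 and 300.2 CPM in controls. Its difference from control was 0.69 ± 0.21 (SE), 0.91 in the M1 subset (adjusted p = 0.00974) and 0.34 in the other subset, or 0.19 without multidose 5 and 0.19 without vehicle control 3. The cytochrome oxidase subunits COX6C, COX7B and COX7C had 0.73 ± 0.24 (SE), 0.67 ± 0.23 (SE) and 0.74 ± 0.25 (SE). Without vehicle control 3, which was low for COX7B and COX7C, they had 0.55, 0.51 and 0.56.

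The 13 genes of the mitochondrial genome were also all positive, with a median of 0.39 and 2 at an unadjusted p under 0.05 (background 6.74%). Without multidose 5 the median was 0.27 and without vehicle control 3 it was 0.275, each with 0 such genes. Over all genes 1316 of 15886 and 665 of 16013 were such genes in these 2 fits. The median was 0.31 in the M1 subset and 0.37 in the other, and 0.13 in the latter without multidose 5. ND3, a complex I subunit, had 0.67 ± 0.28 (SE), the oxidase subunit COX2 0.46 ± 0.21 (SE), the oxidase subunit COX1 0.32 ± 0.17 (SE) and the ATP synthase subunit ATP6 0.45 ± 0.22 (SE). Without multidose 5 these were 0.62, 0.33, 0.24 and 0.30. Multidose 5 was highest in 8 of the 13 genes and vehicle controls 1 and 3 were lowest in 7 and 6. Mitochondrially encoded genes took 16.4% to 23.1% of the counts in multidose and 12.4% to 20.01% in control libraries (exact two-sided permutation p = 0.0669, adjusted p = 0.112 over 5 library measures).

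The 64 cytoplasmic ribosomal protein genes tested were all positive with a median of 0.47, and 23 were at an unadjusted p under 0.05 (background 6.74%). Their median was 0.72 in the M1 subset, where 41 were higher at an adjusted p under 0.05 (background 5.29%), and 42 without vehicle control 3 (background 3.87%). In the other subset the median was -0.0026, with 31 positive and 33 negative, and it was 0.021 without multidose 5, -0.16 without vehicle control 3 and 0.081 without vehicle control 4. RPL22 (ENSSSCG00000054047), a protein of the large subunit, measured 465.8, 357, 378 and 353 CPM in the M1 libraries, 256, 167 and 169 CPM in the other multidose libraries and 178, 166, 65.4, 203 and 199 CPM in controls. All M1 values lay above all controls, as did multidose 5, and multidose 6 and 7 lay within the control range. RPS27A had 0.90 ± 0.31 (SE), RPS24 0.81 ± 0.28 (SE) and RPS3A 0.62 ± 0.24 (SE) over all libraries. Without vehicle control 3 these were 0.72, 0.62 and 0.43, and RPL22 went from 0.92 to 0.72. The list median without that library was 0.30 with 3 genes at an unadjusted p under 0.05 (background 4.15%). Without multidose 1, the highest in 62 of the 64 genes, it was 0.37 with 4 such genes (background 4.77%). Ribosomal protein genes have many processed copies in mammalian genomes, so that single values are uncertain.

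Mitochondrial ribosomal protein genes had positive values in 64 of 68 members (median 0.30), and 30 were at an unadjusted p under 0.05 (background 6.74%). Over all libraries without vehicle control 3 the median was 0.21 with 17 such genes (background 4.15%). The median was 0.39 in the M1 subset and 0.16 in the other subset, or 0.088 in the latter without vehicle control 3. MRPL9 measured 58.5 to 72.2 (median 66.995) CPM against 43.8 to 60.04 (median 49.8) CPM, a log2 fold change of 0.40 ± 0.11 (SE) and 0.32 in the M8 and M9 libraries. MRPL24 and MRPS36 had 0.51 ± 0.16 (SE) and 0.56 ± 0.18 (SE).

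**Figure D3:**
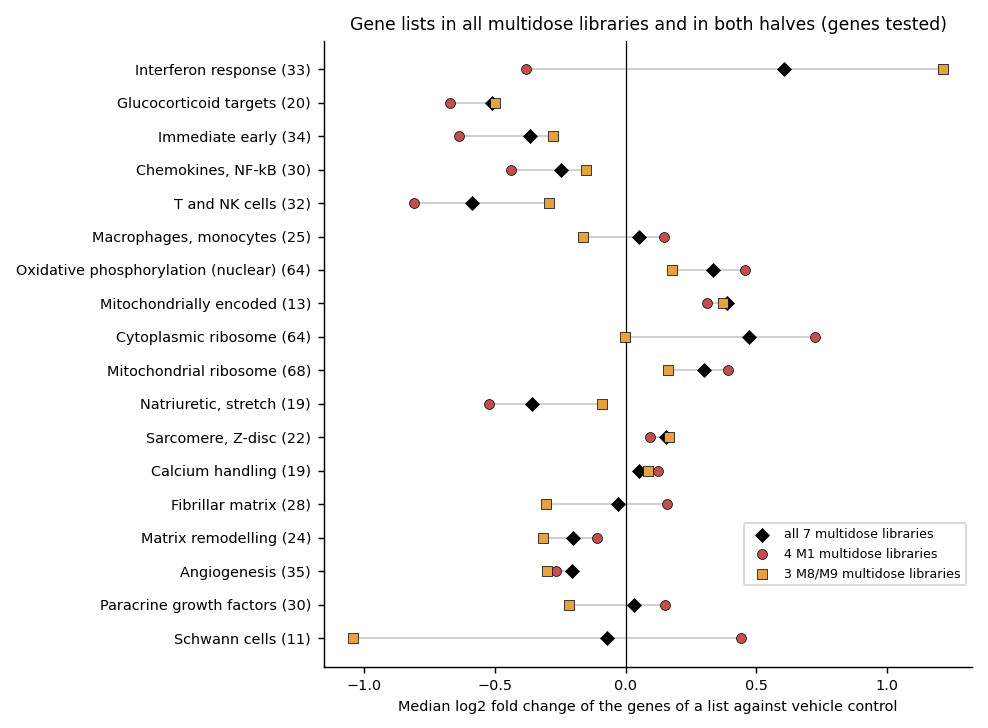
Median log2 fold change against vehicle control of the tested genes of 18 lists, for all 7 multidose libraries (diamonds), the 4 M1 libraries (circles) and the 3 M8 and M9 libraries (squares). Cytoplasmic ribosomal protein genes stand at 0.72 and -0.0026 in the subsets and Schwann cell markers at 0.44 and -1.04, and the mitochondrially encoded genes at 0.31 and 0.37, the latter 0.13 without multidose 5.

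**Figure D4:**
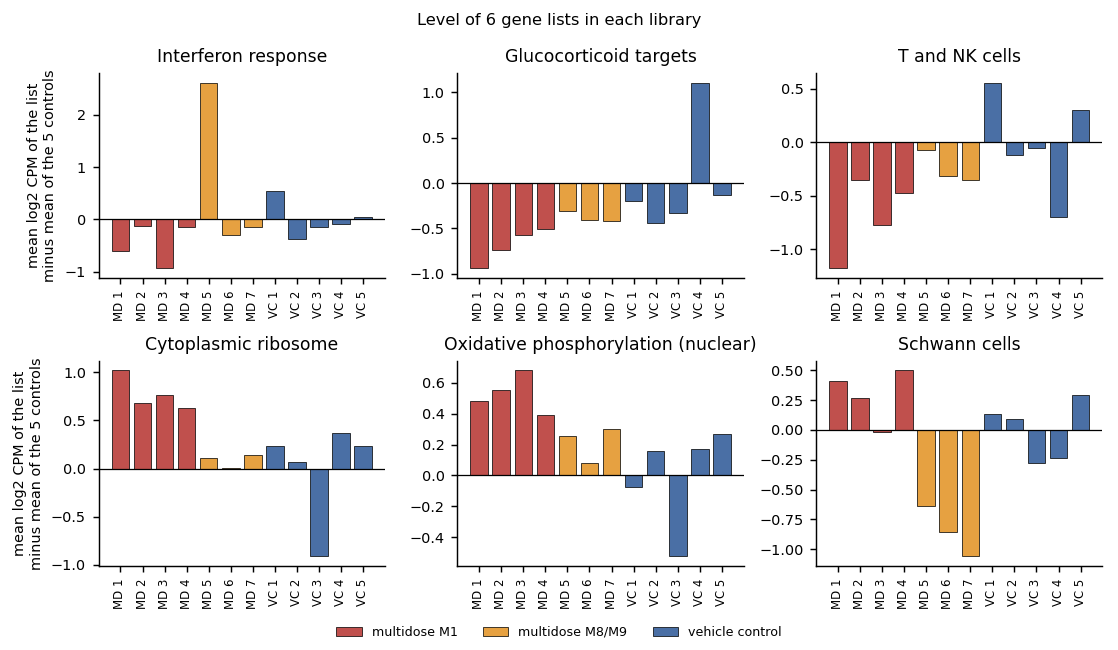
Mean log2 CPM of 6 gene lists in each multidose (MD) and vehicle control (VC) library, as the difference from the mean of the 5 controls. Multidose 5 stands out for interferon genes and vehicle control 4 for glucocorticoid targets. For ribosomal and oxidative phosphorylation genes all 4 M1 bars are above the control mean and vehicle control 3 is the lowest bar, and Schwann cell markers are below the control mean in all 3 M8 and M9 multidose libraries.

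Natriuretic peptides and other genes of wall stress had negative values in 16 of 19 members (median -0.36), and 2 were at an unadjusted p under 0.05 (background 5.83%). The hormone genes themselves divided by library name. NPPA (ENSSSCG00000061442, chr6:71919557-71921345), which encodes atrial natriuretic peptide, measured 87.9, 202, 59.6 and 176 CPM in the M1 libraries, 1072, 4397 and 803 CPM in multidose 5, 6 and 7 and 976, 4795, 1687, 3648 and 816 CPM in controls. NPPB (ENSSSCG00000003431, chr6:71930374-71931843), which encodes brain natriuretic peptide, measured 84.6, 312, 34.5 and 337 CPM, 666, 2433 and 1351 CPM and 1736, 2847, 981, 4800.4 and 595 CPM in the same order. For both genes all M1 values lay below all controls. The other multidose values lay within the control range, except that of NPPA in multidose 7, which was just below its lowest control. In the M1 subset NPPA fell by 4.18 ± 0.71 (SE, adjusted p 0.00435) and NPPB by 3.51 ± 0.72 (SE, adjusted p 0.00962) on the log2 scale. The other subset had -0.19 ± 0.66 (SE) for NPPA, or 0.13 without multidose 5, -0.30 without vehicle control 3 and 0.02 without vehicle control 4. For NPPB it had -0.56 ± 0.70 (SE), or -0.21 without multidose 5 and -0.048 without vehicle control 4. The subsets differed with an adjusted p of 0.013 for NPPA and 0.0349 for NPPB. For NPPB the difference was -2.95, and -3.30 without multidose 5, where it did not pass (adjusted p = 0.0667). XIRP1, an actin-binding protein of stretched muscle, divided in the same way (adjusted p 0.0163 between the subsets), with -1.42 ± 0.26 (SE, adjusted p 0.00525) and -0.01 ± 0.27 (SE). Its difference of -1.41 between the subsets was -1.39 without multidose 5 (adjusted p = 0.0585), and its value in the other subset ran from -0.026 to 0.14 without multidose 5, vehicle control 3 or vehicle control 4. NPR1, the receptor of both hormones, had -0.40 ± 0.16 (SE) over all libraries, with 22.7 to 31.4 (median 24.8) CPM against 20.8 to 44.3 (median 35.6) CPM. FURIN, a protease that cleaves prohormones, had -0.43 ± 0.16 (SE) and -0.27 without vehicle control 3, and CORIN, the protease that activates atrial natriuretic peptide, 0.67 ± 0.36 (SE), with a sign that turned in the M8 and M9 libraries.

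Of 22 sarcomere and Z-disc genes 14 were positive with a median of 0.15, or 0.099 without multidose 5, and 3 were at an unadjusted p under 0.05 (background 6.74%). MYL3, the ventricular essential light chain, measured 4641 to 6892 (median 5701) CPM against 3590.1 to 4769 (median 3871) CPM, a log2 fold change of 0.50 ± 0.16 (SE) that was 0.41 in the M8 and M9 libraries. TNNC1, cardiac troponin C, had 0.54 ± 0.21 (SE), and MYL2 0.48 ± 0.19 (SE) with 0.70 in the M1 subset (adjusted p = 0.0261) and 0.11 in the other, or -0.0084 without vehicle control 3 and 0.24 without vehicle control 4. ACTC1, cardiac actin, had 0.94 ± 0.46 (SE) with 1.23 and 0.44 in the subsets, the latter 0.18 without vehicle control 4. MYH15 (ENSSSCG00000022175), a myosin heavy chain gene chosen after its values were seen, measured 4.70, 11.02, 8.91 and 3.41 CPM in the M1 libraries, 0.274, 0.275 and 0.202 CPM in the other multidose libraries and 0.275 to 0.703 CPM in the 5 controls. Calcium handling genes had positive values in 12 of 19 members (median 0.05, or 0.13 without vehicle control 3). PLN, the inhibitor phospholamban of the calcium pump, had 0.73 ± 0.26 (SE), with 1139 to 2700.2 (median 1825) CPM against 725 to 1738 (median 991) CPM. TRDN, triadin of the calcium release unit, had 0.43 ± 0.16 (SE), and 0.63 in the M1 subset. PPP1R1A, an inhibitor of protein phosphatase, had 2.05 ± 0.41 (SE, adjusted p 0.00738) in the M1 subset and 0.12 in the other, or 0.38 without multidose 5, 0.0021 without vehicle control 3 and 0.06 without vehicle control 4. STIM1, a sensor of stored calcium, had -0.29 ± 0.13 (SE).

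Collagen and other fibrillar matrix genes were divided over all libraries, with 13 of 28 positive, a median of -0.03 and 3 at an unadjusted p under 0.05, all negative (background 5.83%). The median was 0.014 without multidose 5, 0.051 without vehicle control 3 and -0.064 without vehicle control 4. In the M8 and M9 libraries 23 of the 28 were negative with a median of -0.31. COL3A1 (ENSSSCG00000016034), the chain of type III collagen, measured 4073, 2045, 2788 and 4091 CPM in the M1 libraries, 1658, 1571 and 1127 CPM in the other multidose libraries and 2484, 1617, 1959, 1271 and 1443 CPM in controls. On the log2 scale this differed from control by 0.50 ± 0.33 (SE), 0.89 in the M1 subset (adjusted p = 0.0348) and -0.27 in the other subset, and 1.16 between the subsets (adjusted p = 0.0364). Without vehicle control 4 the M1 subset had 0.80 (adjusted p = 0.0657), and without multidose 5 the subsets differed by 1.27 (adjusted p = 0.0993), neither of which passed. COL1A1 of type I collagen had -0.29 ± 0.24 (SE) and -0.09 without vehicle control 1. COL5A1, which regulates fibril assembly, had -0.53 ± 0.20 (SE) and -0.53 in the M8 and M9 libraries. COL4A2 of the basement membrane had -0.50 ± 0.21 (SE) and -0.18 without vehicle control 3, its highest library. THBS1, the matrix glycoprotein thrombospondin-1, had -0.43 ± 0.15 (SE), and the proteoglycan decorin gene DCN 0.59 ± 0.28 (SE), with a sign that turned in the M8 and M9 libraries. Matrix remodelling genes had negative values in 18 of 24 members (median -0.20, or -0.066 without vehicle control 4). ADAMTS4, a proteoglycan-cleaving protease, had -1.77 ± 0.52 (SE) and -0.37 without vehicle control 4, where it measured 20.1 CPM. LOXL2, which crosslinks collagen, had -0.36 ± 0.17 (SE) and -0.41 in the M8 and M9 libraries. TIMP4, a cardiac inhibitor of matrix proteases, had 1.25 in the M1 subset (adjusted p = 0.0225) and -0.16 in the other subset, or 0.22 without multidose 5, 0.0066 without vehicle control 3 and -0.30 without vehicle control 4. CTSK, the collagen-degrading cathepsin K, had 0.33 ± 0.18 (SE), with a sign that turned in the M8 and M9 libraries.

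Angiogenesis genes, the ligands, receptors and transcription factors of vessel growth, had negative values in 24 of 35 members (median -0.21, or -0.12 without vehicle control 3), and 7 were at an unadjusted p under 0.05 (background 5.83%). In the M8 and M9 libraries 31 of 35 were negative with a median of -0.31 and 6 such genes (background 2.16%). Without multidose 5 the median there was -0.13 with 0 such genes, against 162 of 16532 over all genes. NOTCH4 (ENSSSCG00000001440), a Notch receptor of endothelial cells, measured 32.4, 44.05, 38.7 and 56.1 CPM in the M1 libraries, 47.7, 61.4 and 70.7 CPM in the other multidose libraries and 92.7, 61.8, 81.0, 127 and 78.96 CPM in controls. Relative to control this gave -0.81 ± 0.20 (SE, edgeR adjusted p 0.366), with multidose 7 above the lowest control. FLT1, a VEGF receptor, had -0.56 ± 0.19 (SE) and -0.37 without vehicle control 4. DLL4, a Notch ligand of sprouting vessels, had -0.54 ± 0.21 (SE), and NRP1, a VEGF coreceptor, -0.35 ± 0.14 (SE). VEGFA had -0.34 ± 0.22 (SE) and -0.17 without vehicle control 5. The endothelial adhesion gene PECAM1 was nearly level at 0.0048 ± 0.16 (SE), with 0.067 without multidose 5, 0.051 without vehicle control 3 and 0.039 without vehicle control 4, and its sign turned in several alternatives. Endothelial markers as a whole had negative values in 17 of 22 members (median -0.26), against 49.3% positive over all genes. This is the direction of the angiogenesis list, but the lists share members such as FLT1, so the match is partly fixed by these. Vehicle control 1 was the highest library in 9 of the 22 endothelial and 11 of the 35 angiogenesis genes. The part of endothelial markers in the angiogenesis list was not tested.

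Paracrine growth factors and their receptors had positive values in 16 of 30 members (median 0.03, or 0.09 without multidose 5 and 0.10 without vehicle control 4). KIT, the receptor of stem cell factor, had -0.71 ± 0.28 (SE), 16.5 to 54.2 (median 34.7) CPM against 27.3 to 81.5 (median 57.8) CPM, and -0.24 in the M8 and M9 libraries. PDGFRB, a receptor of mural cells, had -0.42 ± 0.19 (SE) and -0.16 without vehicle control 3. IGF1, a growth factor for muscle, had 1.18 ± 0.30 (SE, adjusted p 0.0215) in the M1 subset and -0.29 ± 0.34 (SE) in the other, or -0.048 without multidose 5 and -0.44 without vehicle control 4. FGF16, a growth factor of heart muscle, had -0.73 ± 0.36 (SE).

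Schwann cells wrap the nerve fibres of the ventricular wall. Over all libraries 7 of their 11 markers were negative with a median of -0.07 (0.036 without multidose 5, -0.14 without vehicle control 3), and 0 were at an unadjusted p under 0.05. In the M1 subset 7 were positive with a median of 0.44, and 0 were called. In the M8 and M9 libraries all 11 were negative with a median of -1.05, and 8 were at an unadjusted p under 0.05 (background of negative genes 2.16%). This count ran from 6 to 8 when single multidose or control libraries were left out. Over all genes the negative count then ran from 162 of 16532 (without multidose 5) to 705 of 16496 (without multidose 7). GPM6B (ENSSSCG00000012126, chrX:10429496-10582768), a membrane protein of glia chosen through its p in these libraries, measured 2.88, 3.12 and 3.81 CPM in multidose 5 to 7, 10.3, 8.47, 10.2 and 13.1 CPM in the M1 libraries and 8.57, 6.87, 5.10, 14.2 and 9.56 CPM in controls. LGI4 (ENSSSCG00000025126, chr6:44655621-44663874), a secreted factor that Schwann cells need to myelinate, measured 6.85, 6.26 and 5.86 CPM, 12.1, 8.16, 11.4 and 14.3 CPM and 12.4, 11.5, 9.22, 9.28 and 8.86 CPM in the same order. For both genes the M8 and M9 multidose values lay below all controls and below all M1 libraries. LGI4 was also chosen through its p in the M8 and M9 libraries, and this choice favours a gap to control.

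The log2 fold change in the M8 and M9 libraries was -1.45 ± 0.36 (SE) for GPM6B and -0.71 ± 0.15 (SE) for LGI4, and neither passed (edgeR adjusted p 0.9998). SCN7A, a sodium channel of glia, had -1.32 ± 0.38 (SE), and the cadherin CDH19 -1.59 ± 0.47 (SE), both chosen after their values were seen. SOX10, the transcription factor that defines the lineage, had -1.04 ± 0.38 (SE), and the myelin gene MBP -0.60 ± 0.22 (SE). Between the subsets of the multidose group, 5 of the 11 markers were higher in the M1 libraries at an adjusted p under 0.05 (background 2.3%), and 1 without multidose 5 (background 0.183%). The summed level of the list was 72.5 to 86.0 CPM in the M8 and M9 multidose libraries, 88.1 to 124.7 CPM in the M1 libraries and 83.7 to 127.6 CPM in controls, so that the sums of the M8 and M9 multidose libraries and the controls overlapped.

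Other genes with the smallest p in the M8 and M9 libraries were PRDM8, a transcriptional regulator (-1.54 ± 0.36, SE), SNAI2, a regulator of mesenchymal cells (-0.83 ± 0.21, SE), GFAP, an intermediate filament of glia (-1.09 ± 0.29, SE), and GCC1, a Golgi protein (-0.68 ± 0.18, SE). SNAI2 measured 6.52, 6.17 and 7.56 CPM in multidose 5 to 7, 10.2, 10.4, 13.6 and 15.3 CPM in the M1 libraries and 16.3, 9.14, 9.22, 13.6 and 11.3 CPM in controls. Only its M8 and M9 multidose values lay below all controls, which the choice of the gene through its p in these libraries favours. None passed (edgeR adjusted p of 0.9998 in each case).

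**Figure D5:**
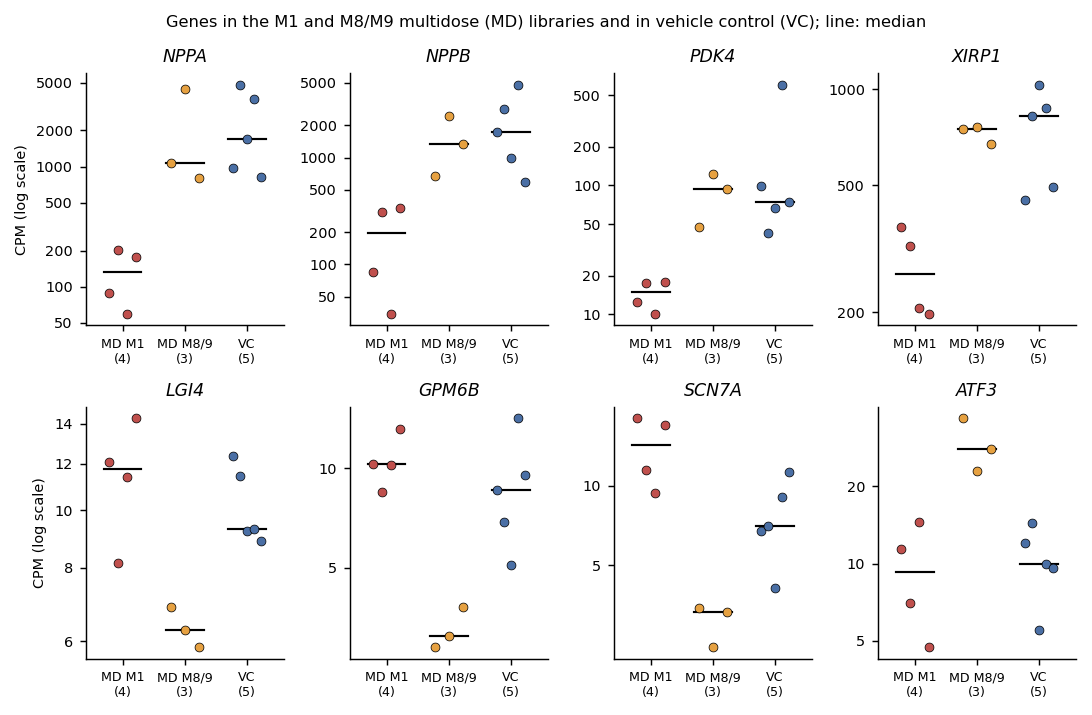
CPM on a log axis of 8 genes, with 1 point per library and a line at the median. NPPA, NPPB, PDK4 and XIRP1 are lowest in the 4 M1 multidose libraries, LGI4, GPM6B and SCN7A are lowest in the 3 M8 and M9 multidose libraries, and ATF3 is highest in these 3, between 22.9 and 36.9 CPM. LGI4, GPM6B and ATF3 were chosen through their p in the M8 and M9 libraries, which favours a gap to control.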

How the data were processed

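Gene counts in 17 libraries of right ventricular RNA were deposited by the authors as whole-number counts, not normalized. Per the submitters' processing notes, the build is Sscrofa11.1 and the tools named are HISAT2 2.1.0, Subread 1.6.2, Trimmomatic 0.33, FastQC 0.11.7 and SAMtools 1.7. For the annotation release and strand setting nothing is stated (not given in the sources used here). Of the 35670 rows, 18030 were named by identifier only, and 119 of these were given a symbol from reference tables. Positions are those of RefSeq genes on Sscrofa11.1.

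Genes were filtered with filterByExpr (minimum count 10, minimum total 15) and scaled by TMM, which also scales the CPM values. The counts were fitted with edgeR 4.0.16 (quasi-likelihood, robust) in R 4.3.3, with 1 coefficient per group over all 17 libraries and Benjamini-Hochberg adjustment over all genes tested. Each standard error is the fold change divided by the root of its F. Further fits used only M8 and M9 libraries or split the groups by library name. DESeq2 1.42.0, limma 3.58.1 (voom with quality weights), other scalings and filters, covariates, thinning to the shallowest library and leaving out each library were alternatives. The scripts were tested on simulated data, and 0 columns lacked a sample.

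Named genes were the 8 per direction with the smallest p among non-overlapping genes with a mean of at least 1 CPM, the 6 per direction with the smallest p in the M8 and M9 fit, up to 4 members per described list with the smallest p, NPPA, NPPB, COL1A1, COL3A1, VEGFA and PECAM1, and genes called in an alternative with 10 or fewer calls. Other named genes, such as CCL21, PPP1R1A, IGF1 and TIMP4 fall under the list rule, and PDK4, MYH15, IFI6, SCN7A and CDH19 were chosen after their values were seen. The comparison, members and lists were chosen with earlier results of these data known. Transcript length and promoter motifs were planned and not analysed here, and some genes that the rule names are not reported here.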

Additional observations from a re-analysis of the deposited data

Results flagged for a closer look

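A group was flagged where the gap of its highest or lowest library to the next one exceeded Dixon's 95% critical value. The nominal rate is about 1 in 20 groups, and over all 15884 genes 9.63% of multidose and 8.95% of control groups were flagged. Of 224 group values tested, for genes that were partly named for their values, 39 were flagged. In multidose 5 these were the interferon response genes ISG15 (1632 CPM), RIGI (412 CPM), IFI44L (546 CPM), IFIT3 (293 CPM), USP18 (70.7 CPM), IFI6 (2174 CPM) and CXCL10 (539 CPM), the mitochondrially encoded COX2 (27707 CPM) and ATP6 (43905 CPM), H2AJ (30.8 CPM) and THBS1 (104.7 CPM). The other high multidose values were HJV (7.58 CPM) and RNF180 (48.5 CPM) in multidose 1, ENSSSCG00000046947 (9.78 CPM) in multidose 3, DDIT4 (51.4 CPM) and CCR2 (15.8 CPM) in multidose 4 and NPPA (4397 CPM) in multidose 6.

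In vehicle control 4 the high values were stress and glucocorticoid-responsive genes, namely SIK1 (104 CPM), CEBPD (93.0 CPM), ZFP36 (89.1 CPM), FKBP5 (275 CPM), DDIT4 (172 CPM), SOCS3 (23.9 CPM) and PDK4 (602 CPM), and OTUD1 (26.98 CPM), ADAMTS4 (20.1 CPM), CD163 (207 CPM), IFI6 (427 CPM) and CXCL10 (227 CPM). Vehicle control 3 was low for COX7B (206 CPM), COX7C (255 CPM) and RPL22 (65.4 CPM) and high for COL4A2 (1677 CPM) and FURIN (93.6 CPM). Vehicle control 1 was high for MARCO (15.7 CPM), GPR35 (6.47 CPM), CTSK (56.97 CPM) and RNF180 (23.0 CPM), and vehicle control 5 for PPP1R1A (3.89 CPM).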

How the results depend on the processing

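Between multidose and control the number of genes at an adjusted p under 0.05 was 0 in every alternative except DESeq2 (8) and the replicate block by number (1, with 3175 genes at an unadjusted p under 0.05). The replicate numbers do not pair the animals: same-numbered libraries correlated at -0.108, -0.010, -0.068, -0.053 and -0.158. The unadjusted count was 606 with a covariate for M1 names, 997 with one for the suffix _R, 592 in M8 and M9 libraries, 335 in libraries with the suffix _R, and 1286 (without vehicle control 3) to 2598 (without multidose 6) when single libraries were left out. The share higher among these genes, 53.6%, was 56.7% by upper-quartile scaling, 49.2% with no filter, 49.6% by limma-voom, 49.4% with the block, 44.4% with the suffix covariate, 48.1% in suffix _R libraries, and 48.0% (without vehicle control 1) to 56.2% (without vehicle control 4) with 1 library left out, so that neither direction held the majority in every setting. Non-overlapping genes numbered 52 to 191 with 1 library left out, 313 in M8 and M9 libraries and 230 without multidose 5 and vehicle control 4, a setting chosen after seeing the data. In the M1 libraries against control, 5 genes did not pass without vehicle control 4 while their values stayed within 1.5 times: STUM (-0.96), RORA (-0.44), H2AJ (0.50), DTNA (0.61) and COL3A1 (0.80), with adjusted p from 0.0647 to 0.0769. Without vehicle control 3 this held for STUM (-1.08), RORA (-0.55), H2AJ (0.48), MRPS23 (0.43) and DTNA (0.67), with adjusted p from 0.0532 to 0.0796. The M1 and other multidose libraries differed in 108 genes without multidose 5, in 1453 without vehicle control 3 and in 920 without vehicle control 4, settings chosen after seeing the data.

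Signs turned as follows, and the cause was not tested. PECAM1 had -0.0048 with no filter, -0.20 with the M1 covariate, -0.0033 with the suffix covariate, -0.049 with the Y-linked covariate, -0.25 in M8 and M9 libraries, and -0.10 to 0.067 with 1 library left out. CXCL10 had -2.33 by DESeq2, -1.68 by limma-voom, -0.94 with the suffix covariate, -1.39 with the block, -2.30 in suffix _R libraries, -1.52 without multidose 5 and vehicle control 4, and -2.48 to 1.14 with 1 library left out. With the M1 covariate and in M8 and M9 libraries COL3A1 had -0.26 and -0.28, DCN -0.0022 and -0.011, CCR2 -0.044 and -0.17, and CORIN -0.077 and -0.052. In M8 and M9 libraries CTSK had -0.062, and PDGFRB 0.016 in suffix _R libraries. In M8 and M9 libraries without multidose 5, ISG15 had -0.29, IFI44L -0.10, IFIT3 -0.23 and IFI6 -0.48; their highest values with 1 library left out were 4.70, 2.605, 2.98 and 2.84. In the split fit, the M8 and M9 multidose libraries had 0.22 (TIMP4), 0.13 (NPPA), -0.71 (PDK4) and -0.026 (XIRP1) without multidose 5, and -0.30, 0.020, 0.32 and 0.060 in the same order without vehicle control 4. Without vehicle control 3 TIMP4 had 0.0066, XIRP1 0.14, PDK4 -1.22 and MYL2 -0.0084 there, and MYL2 had 0.24 without vehicle control 4. The ribosomal share differed by -0.113 percentage points in M8 and M9 libraries. Thinned to the depth of the shallowest library, 14689 genes were tested, with 1021 higher and 887 lower at an unadjusted p under 0.05.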

Other observations

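Of 18 fibroblast markers the median log2 fold change was 0.44 in the M1 libraries, with 3 higher at an adjusted p under 0.05 by edgeR (background 5.29%), and -0.24 in the other multidose libraries, with 0. The mean log2 CPM of the list was 6.81 to 7.09 in the M8 and M9 multidose libraries and 7.04 to 7.65 in the controls, so that these overlapped. Between the subsets 3 were higher in the M1 libraries (background 2.3%). For 8 lymphatic endothelial markers the median was 0.70 in the M1 libraries, with 2 higher, and -0.29 in the other multidose libraries, or -0.025 without multidose 5 and -0.072 without vehicle control 4. Their mean log2 CPM was 2.46 to 3.44 in the M8 and M9 multidose libraries and 2.62 to 3.48 in the controls, and 2 were higher in the M1 libraries than in the other multidose libraries. For 6 erythroid genes the median was 0.33 in the M1 libraries, or 0.21 without vehicle control 3 and 0.17 without vehicle control 4. In the other multidose libraries it was -0.96, or -0.63 without vehicle control 4, with 0 genes called in either subset.

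The direction of fold changes also moved with the genomic span of genes in the M8 and M9 libraries. This span was known for 12058 of 12968 tested genes with a symbol (92.98%). From the shortest to the longest of 5 groups of genes by span, the share with a positive value fell from 60.4% to 33.5% in these libraries. Over all libraries the shares were 56.4%, 47.4%, 48.5%, 46.7% and 45.7% in that order, a step after the shortest group. In the M1 subset the median log2 fold change was 0.0047 in the shortest and 0.0049 in the longest group, and -0.065, -0.020 and -0.024 between them.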
